A study of Mus musculus with 10 samples.

Results

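The genes studied here encode the platelet-derived growth factors (PDGFs) Pdgfa, Pdgfb and Pdgfc and the PDGF receptors Pdgfra and Pdgfrb, and they were chosen by name rather than by their values. They comprise 5 of the 12393 genes named on the array, and all 10 of their probe-sets were taken from the 22626 probe-sets that are not controls. Each of the 10 probe-sets was assigned to a single gene by the platform annotation.

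Expression was measured on Affymetrix MOE430A arrays in 5 cell populations sorted from the backskin of mice at postnatal day 4 (P4), with 2 arrays for each population and no wild-type control. All mice carried both Lef1-RFP, a red fluorescent protein driven by a human Lef1 promoter fragment, and K14-H2BGFP, a green histone fusion driven by the keratin 14 promoter, and the methods pooled 5 backskins for a preparation. The matrix (Mx) was sorted as weakly green and the outer root sheath (ORS) as strongly green, both without red. The dermal papilla (DP) was sorted as strongly red without green, and the dermal fraction (DF) as the cells without either colour, both after depletion of cells carrying CD34, CD45 or CD117 (Kit). Melanocytes (Mc) were sorted as red cells that carried CD117. The gates define DF by what it lacks, so it is a mixture of dermal cells.

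PDGFs are secreted as dimers of A, B, C or D chains. Their receptors are tyrosine kinases: the alpha receptor binds dimers of A, B and C chains, and the beta receptor binds mainly B and D chains. In skin, A chains made by epithelium act on fibroblasts and papilla cells that carry the alpha receptor, whereas B chains from endothelium recruit pericytes through the beta receptor.

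The values are linear MAS 5.0 signals, and a probe-set was tested where its signal was at least 200 on both arrays of 1 population or more. Of the 10 PDGF probe-sets, 5 passed: both of Pdgfa, both of Pdgfrb and 1 of Pdgfra. The others were 1 probe-set of Pdgfra and the 4 of Pdgfb and Pdgfc. Differences were fitted with limma on log2(signal + 50), a scale that understates the change of dim probe-sets, and p-values were adjusted by the Benjamini-Hochberg method over the 8054 probe-sets tested. Signals of different probe-sets are not compared with each other, since probes differ in how well they bind.

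Marker lists were used to describe the sorted cells, and their signals do not measure purity. The study itself judged purity by flow cytometry after the sort, by immunofluorescence and by RT-PCR. It also reported alkaline phosphatase activity, cell cycle profiles and, for cultured DP cells, grafts that grew hair. All 5 papilla markers were above 200 on both DP arrays, and none of them was in DF. All 7 melanocyte markers were higher on both DP arrays than on both DF arrays, as were 27.4% of all tested probe-sets. Their summed signals were 23724.5 and 14711.5 in DP, 12576.7 and 3837.4 in DF, and 29508.3 and 31289 in Mc. The sums of 9 endothelial markers were 5384.2 and 4013.9 in DF and at most 393.7 elsewhere. Those of 6 immune and platelet markers were 157.2 to 310.2 in every array, with no marker above 200 on both arrays of a population. In such sorted pools, fewer cells of a type and less RNA per cell cannot be told apart.

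**Figure D1:**
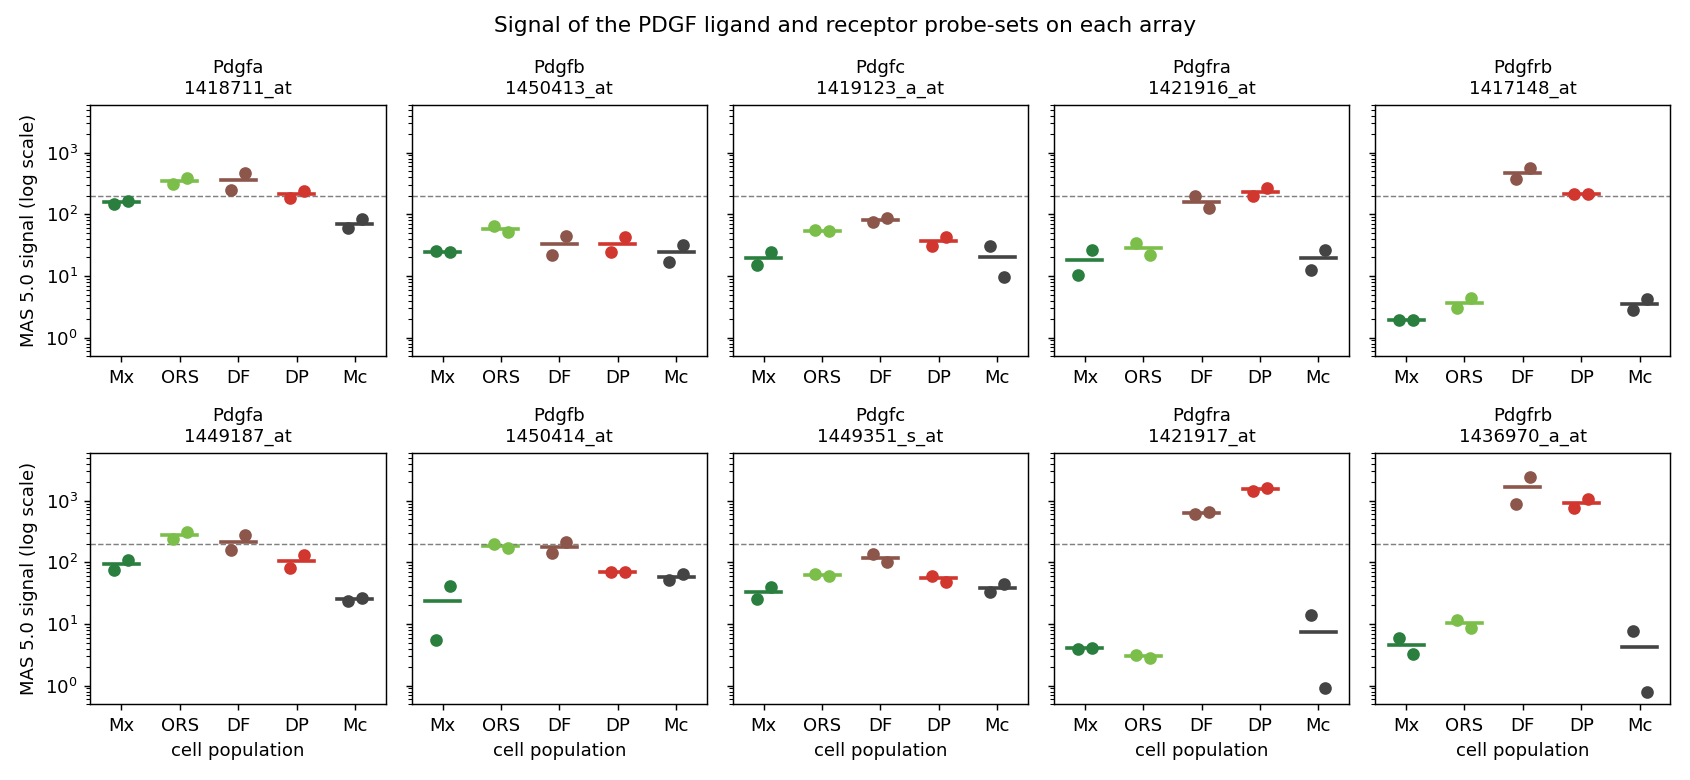
MAS 5.0 signal (log axis) of the 10 PDGF probe-sets in Mx, ORS, DF, DP and Mc; each point is 1 array, each short line the mean of 2 arrays, and the dashed line the bound of 200. The 4 receptor probe-sets are at 127.5 or more in DF and DP and at 34.9 or less elsewhere, whereas both Pdgfa probe-sets lie high in ORS and DF.

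Pdgfa, the A chain, was the only ligand whose probe-sets passed the bound, and its signals in the dermal fraction and in the outer root sheath overlapped. At probe-set 1418711_at the signals were 148.9 and 162.7 in Mx, 307.8 and 390.2 in ORS, 249.8 and 462.1 in DF, 185.5 and 238.1 in DP, and 59.0 and 82.5 in Mc. ORS and DF overlapped as the highest populations and Mc was the lowest on both arrays.

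The second Pdgfa probe-set, 1449187_at, gave 74.3 and 110.8 in Mx, 235.2 and 312.8 in ORS, 159.3 and 276.0 in DF, 80.0 and 133.1 in DP, and 24 and 26.3 in Mc. Again ORS and DF overlapped, as did Mx and DP, and Mc was lowest. Across the 10 arrays the 2 probe-sets correlated with r = 0.976, as a description over arrays of 5 populations.

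Within the follicle epithelium, Pdgfa was lower in Mx than in ORS at both probe-sets. By limma the log2 difference was -0.95 (SE 0.25, adjusted p = 0.0169) at 1418711_at and -1.19 (SE 0.25, adjusted p = 0.00477) at 1449187_at, with 2 arrays each. These were the 2 PDGF calls of 5 in this comparison, in which 19.4% of all tested probe-sets were called. Since 1449187_at passed the bound of 200 through ORS alone and 1418711_at through ORS and DF, the bound favoured calls in that direction. In limma the first call was lost without Mx replicate 1 (adjusted p = 0.0994) or ORS replicate 2 (0.138), and the second likewise (0.0599 and 0.0592). The first was also lost after quantile normalization (limma, adjusted p = 0.0504) and with no bound on signal (0.0664).

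Between epithelium as a whole (Mx and ORS) and mesenchyme (DF and DP), Pdgfa showed no difference that passed the test. The log2 difference by limma was -0.16 at 1418711_at (95% interval -0.54 to 0.22, adjusted p = 0.442) and 0.09 at 1449187_at (95% interval -0.30 to 0.47, adjusted p = 0.688). Against ORS alone, DF differed by 0.02 (ORS minus DF, adjusted p = 0.965) and 0.30 (adjusted p = 0.387) at the same probe-sets in limma.

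For ORS against DP the bound favoured ORS, since 1449187_at passed it through ORS alone and 1418711_at through ORS and DF. ORS exceeded DP at 1449187_at by 1.06 on the log2 scale (limma, adjusted p = 0.00478), while at 1418711_at the difference of 0.61 did not pass (adjusted p = 0.0687). The first of these was lost without DP replicate 1 (limma, adjusted p = 0.0639). The second was called after quantile normalization (0.0463), with chip lot as a term (0.0265), in a fit of the populations compared alone (0.0311) and without either DF array (0.0346 each). ORS over DP at 1418711_at was also called with the replicate number as a block (limma, adjusted p = 0.0234). Mx and DP differed by -0.34 and -0.13 (Mx minus DP, adjusted p = 0.254 and 0.686), so these neighbours in the order were not separated at either probe-set.

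Mx was lower than DF, with log2 differences of -0.93 and -0.89 (Mx minus DF, limma, adjusted p = 0.00743 and 0.0107), and both calls were lost without DF replicate 2 (limma, adjusted p = 0.1 and 0.123), the second also without Mx replicate 1 (0.0858). The bound favoured DF over Mx at 1418711_at, which passed it through ORS and DF. Against Mc it favoured ORS at both probe-sets and DF at 1418711_at. Every population exceeded Mc, by 0.78 to 1.72 at 1418711_at and by 0.91 to 2.10 at 1449187_at, and all of these 8 differences were called by limma. The smallest of them, Mx over Mc, was lost at 1418711_at without either Mx array or without Mc replicate 1 or with no bound on signal (limma, adjusted p from 0.0568 to 0.128) and at 1449187_at without Mx replicate 2 (0.0668). DP over Mc was lost at both probe-sets without DP replicate 2 (limma, adjusted p = 0.0516 and 0.0972).

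Between DP and DF, both DF arrays were above both DP arrays at each Pdgfa probe-set, as in 36.3% of all tested probe-sets. Neither difference passed in the reported fit. The log2 difference (DP minus DF) by limma was -0.59 at 1418711_at (95% interval -1.13 to -0.05, adjusted p = 0.127) and -0.76 at 1449187_at (95% interval -1.31 to -0.21, adjusted p = 0.053). The second was called with chip lot (limma, adjusted p = 0.0241) or fluidics station (0.0267) as a term, after quantile normalization (0.0267), without DF replicate 1 (0.0231) and without DP replicate 2 (0.0473). The first was called without DF replicate 1 (limma, adjusted p = 0.0218). Within the 2 chip lots the difference was -0.35 and -0.83 at 1418711_at and -0.69 and -0.83 at 1449187_at. In DF and DP, replicate 1 was of lot 1 and replicate 2 of lot 2, so lot and replicate number cannot be told apart here. With the replicate number as a block, both differences were called (limma, adjusted p = 0.0474 at 1418711_at and 0.0115 at 1449187_at).

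Pdgfa in DF was uneven between arrays. The signal of replicate 2 exceeded that of replicate 1 by 0.77 and 0.64 on the log2 scale, more than in 97.6% and 95.9% of the tested probe-sets. Epithelial marker signals moved the same way: the sum of Krt14, Krt5, Epcam, Cdh1 and Krt15 was 839.6 in DF replicate 1 and 1842.4 in replicate 2. All 5 were higher in the latter, as were 54.8% of all tested probe-sets, and the sums in ORS were 17732.9 and 22260.2. Summed signals of matrix markers were 2.15 times as high in DF replicate 2, and those of immune and platelet markers 1.63 times. The factor was 1.46 for adipocyte, 1.23 for red cell, 1.20 for pericyte and 1.10 for skeletal muscle markers. It was 0.93 for fibroblast, 0.88 for Schwann, 0.78 for papilla, 0.75 for endothelial and 0.31 for melanocyte markers. The part of epithelial RNA in the DF signal of Pdgfa was not tested.

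The genomic windows of the 250 bases before the annotated starts of Pdgfa and Pdgfra are shown because they are the only tested ligand and the receptor that was higher in the papilla. They are RefSeq sequences of build GRCm38.p6, 5′ to 3′ along the gene. Pdgfa has 2 windows on the minus strand, chr5:138994282-138994531 and chr5:138994945-138995194, and Pdgfra has 1 on the plus strand, chr5:75152001-75152250. Matches to GGGCGG on either strand (the GC box) are in capitals.
Pdgfa, downstream start: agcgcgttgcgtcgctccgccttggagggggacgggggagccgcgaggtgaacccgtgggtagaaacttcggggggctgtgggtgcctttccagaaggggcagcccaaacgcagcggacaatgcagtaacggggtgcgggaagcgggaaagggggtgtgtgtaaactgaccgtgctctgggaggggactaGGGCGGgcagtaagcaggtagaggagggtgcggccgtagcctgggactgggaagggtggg
Pdgfa, upstream start: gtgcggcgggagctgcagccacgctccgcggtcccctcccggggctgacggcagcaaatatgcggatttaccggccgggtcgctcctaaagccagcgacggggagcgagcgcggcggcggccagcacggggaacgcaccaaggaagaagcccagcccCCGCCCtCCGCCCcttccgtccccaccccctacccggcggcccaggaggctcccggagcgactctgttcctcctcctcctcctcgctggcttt
Pdgfra: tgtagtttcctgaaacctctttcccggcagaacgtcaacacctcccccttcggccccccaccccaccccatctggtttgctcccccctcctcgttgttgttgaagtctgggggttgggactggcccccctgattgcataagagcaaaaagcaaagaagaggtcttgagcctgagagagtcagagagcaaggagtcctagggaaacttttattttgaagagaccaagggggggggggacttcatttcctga
The Pdgfa windows contain 66.4% and 72.4% G or C with 19 and 28 CpG pairs, and 1 and 2 GC boxes. The Pdgfra window contains 54.4% with 4 CpG pairs and no GC box, and the median of all windows in the table is 52.4%. A GC box is in 32.74% of all windows, CCAAT in 33.85% and TATAAA in 12.37%, each on both strands, and neither of the last 2 motifs was found in the 3 windows shown. These are letter matches in this stretch only.

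Pdgfb, the B chain, stayed below the bound on at least 1 array of each population. At 1450414_at the signals were 5.5 and 40.9 in Mx, 196.2 and 170.5 in ORS, 143.9 and 215.7 in DF, 70.6 and 69.1 in DP, and 51.2 and 64.9 in Mc. ORS and DF overlapped and lay above the 3 other populations. The other probe-set, 1450413_at, gave 16.9 to 65.4 over all 10 arrays, with its 2 highest values, 65.4 and 52.4, in ORS.

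Without the bound on signal, limma gave ORS over DP as 0.96 at 1450414_at (adjusted p = 0.0257) and Mx over ORS as -1.71 (adjusted p = 0.00546). DP minus DF was -0.92 there, which did not pass without the bound (limma, adjusted p = 0.0548) and was called with a bound of 100 (0.0159). The 2 Pdgfb probe-sets correlated less closely with each other, r = 0.662, than those of the other genes, a description over 10 arrays.

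Pdgfc, the C chain, was dim as well. At 1449351_s_at the signals were 25.2 and 39.8 in Mx, 64.5 and 59.5 in ORS, 135.9 and 103.2 in DF, 61.1 and 48.7 in DP, and 33.2 and 44.0 in Mc. DF was the highest on both arrays and did not overlap any other population. The second probe-set, 1419123_a_at, had the same order, with 76.4 and 86.8 in DF, 54.9 and 53.5 in ORS, and 42.4 or less elsewhere.

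Fitted without the bound by limma, Pdgfc was lower in DP than in DF at 1449351_s_at, with a log2 difference of -0.69 (DP minus DF, adjusted p = 0.0232, and 0.0202 with a bound of 100). At 1419123_a_at the limma difference of -0.60 did not pass (adjusted p = 0.0555). The D chain, Pdgfd, is no member of the group examined and was at 21.3 or less on every array.

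Pdgfra, the alpha receptor, marked the mesenchyme and was higher in the papilla. At 1421917_at the signals were 609.8 and 658.0 in DF and 1450.5 and 1633.3 in DP. They were 4.0 and 4.1 in Mx, 3.2 and 2.8 in ORS, and 14.0 and 0.9 in Mc. DP was above DF without overlap, as in 27.4% of all tested probe-sets, and the epithelial and melanocyte arrays lay far beneath both.

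DP exceeded DF by 1.22 on the log2 scale at this probe-set (SE 0.18, 95% interval 0.82 to 1.61), a factor of 2.33 (limma, adjusted p = 3.65e-04, n = 2 arrays each). It was 1 of 2 PDGF probe-sets of 5 called between DP and DF, where 19.0% of all tested probe-sets were called. The study itself listed Pdgfra as a papilla signature gene on these samples, so its direction here is no independent evidence. Within each of the 2 chip lots, with 1 array of each population, the difference was 1.19 and 1.25. With a pseudocount of 1 in place of 50 the limma call was lost, at a difference of 1.28 (adjusted p = 0.269).

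The other Pdgfra probe-set, 1421916_at, gave 195.4 and 127.5 in DF, 195.6 and 263.7 in DP, and 10.4 to 34.9 in the remaining 6 arrays. DP did not overlap DF, but its lowest array, at 195.6, was nearly level with the highest DF array. The fit without the bound gave 0.41 for DP over DF (limma, adjusted p = 0.326), with 0.001 in chip lot 1 and 0.82 in lot 2.

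Pdgfrb, the beta receptor, had the reverse order. At 1417148_at the signals were 369.7 and 565.3 in DF and 217.3 and 215.4 in DP, with 1.9 to 4.4 in Mx, ORS and Mc. Both DF arrays were above both DP arrays, as in 36.3% of all tested probe-sets.

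At 1436970_a_at they were 882.7 and 2467.3 in DF and 759.7 and 1049.6 in DP, with 0.8 to 11.8 in the other populations. DF replicate 1 lay between the 2 DP arrays, so here the groups overlapped, while no epithelial or melanocyte array came near them.

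DP was lower than DF at 1417148_at, with a log2 difference of -0.93 (SE 0.20, 95% interval -1.36 to -0.50), so that DF was higher by a factor of 1.91 (limma, adjusted p = 0.00476, n = 2 each). This call was lost without DF replicate 2 (limma difference -0.66, adjusted p = 0.0682). At 1436970_a_at the limma difference of -0.70 did not pass (SE 0.34, adjusted p = 0.198), and it was -1.42 (adjusted p = 0.0022) for DP minus DF without DF replicate 1 and 0.017 (adjusted p = 0.979) without DF replicate 2. Within chip lots, DP minus DF was -0.65 and -1.21 at the first probe-set and -0.20 and -1.19 at the second.

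**Figure D2:**
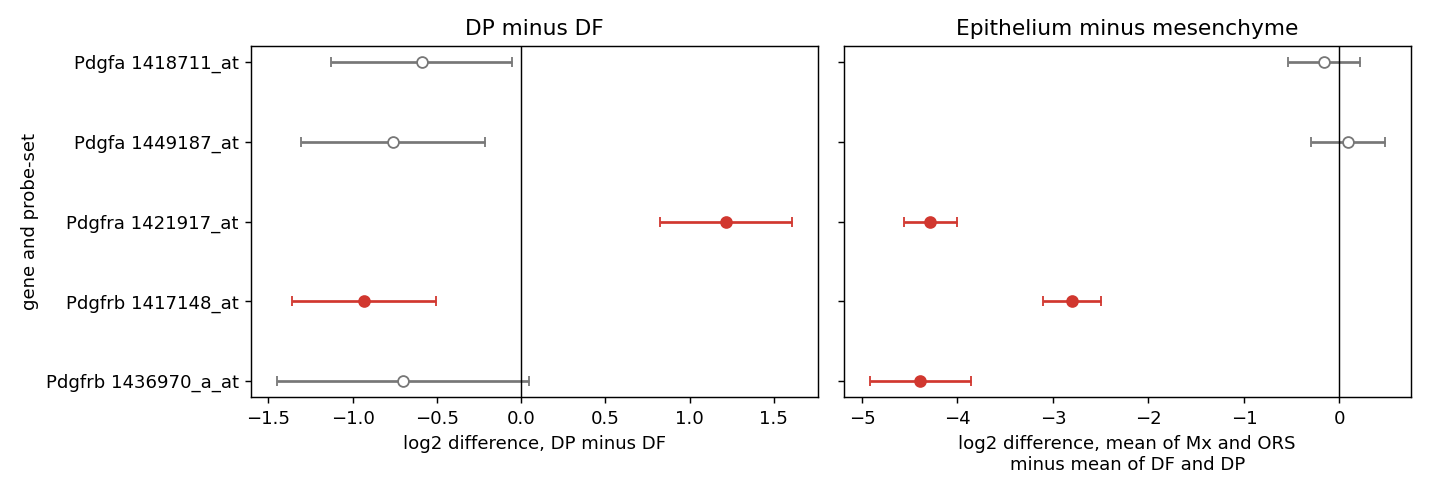
Log2 differences on the log2(signal + 50) scale of the 5 tested PDGF probe-sets, DP minus DF (left) and the mean of Mx and ORS minus the mean of DF and DP (right); points are limma estimates, bars their 95% intervals, and filled red points passed an adjusted p of 0.05. In the left panel Pdgfra is at 1.22 and Pdgfrb 1417148_at at -0.93, on opposite sides of 0.

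The DF signal of Pdgfrb was uneven between the arrays, as were some pericyte and smooth muscle markers. Replicate 2 exceeded replicate 1 by 1.43 at 1436970_a_at and 0.55 at 1417148_at on the log2 scale, more than in 99.7% and 94.2% of tested probe-sets. Of the 10 markers, 8 were higher in DF replicate 2, as were 54.8% of all tested probe-sets, and their summed signal was 1.20 times that of replicate 1. The 3 markers that differed most were Notch3, a receptor of mural cells (1746.4 in replicate 1 and 4197.4 in replicate 2), the potassium channel gene Kcnj8 (429.7 and 1004.8) and its partner Abcc9 (140 and 330.4).

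Rgs5, a defining pericyte gene, was at 6184 and 6114.2 in DF, the smooth muscle actin gene Acta2 at 8747.7 and 8535.7, and Cspg4 at 710.9 and 726.5. The sums of the epithelial and matrix markers differed more between the same arrays, by factors of 2.19 and 2.15. Melanocyte markers went the other way and further, with a sum of 12576.7 in DF replicate 1 and 3837.4 in replicate 2, and 0 of 7 higher in the latter. Between the populations, 9 of the 10 markers had both DF arrays above both DP arrays, as did 36.3% of all tested probe-sets, and their summed signals were 22229.3 and 26770.4 in DF and 3957.8 and 6686.1 in DP. The part of pericyte or epithelial RNA in the Pdgfrb values was not tested. For Pdgfra in DF, replicate 2 minus replicate 1 was 0.10 on the log2 scale at 1421917_at. It was -0.47 at 1421916_at, the probe-set below the bound.

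**Figure D3:**
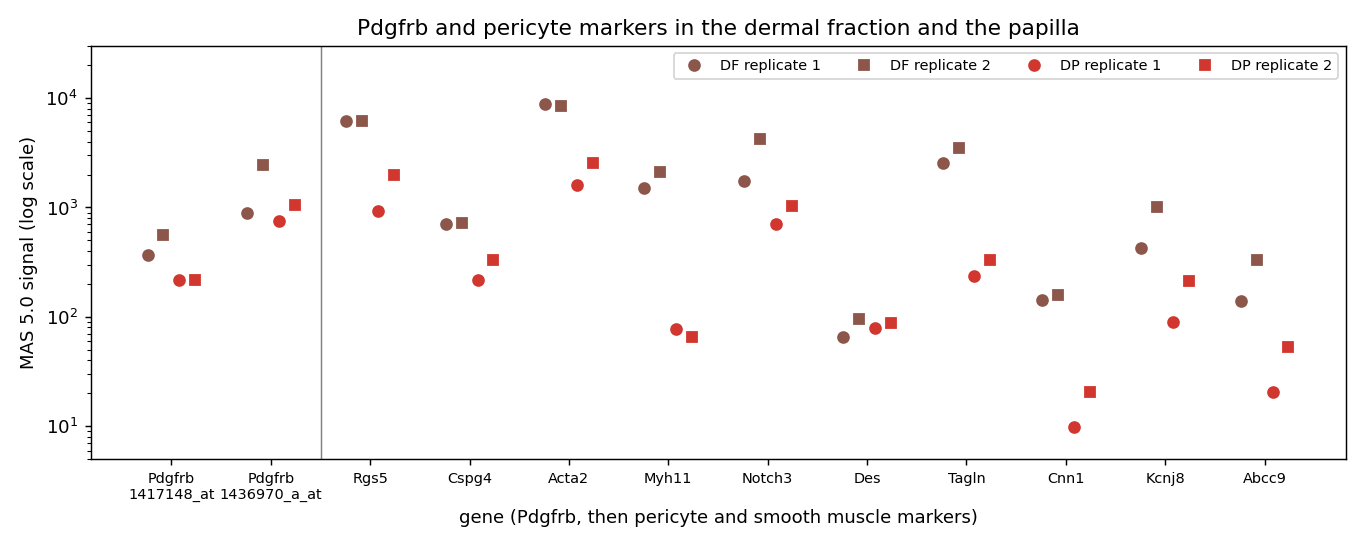
MAS 5.0 signal (log axis) of the 2 Pdgfrb probe-sets and of 10 pericyte and smooth muscle markers on the 2 DF and 2 DP arrays (circles replicate 1, squares replicate 2). Notch3, Kcnj8 and Abcc9 are higher in DF replicate 2, as both Pdgfrb probe-sets are, whereas Rgs5 (6184 and 6114.2) and Acta2 (8747.7 and 8535.7) are not.

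Epithelium was lower than mesenchyme for all 3 tested receptor probe-sets. They had passed the bound of 200 through DF and DP alone, so the bound favoured this direction and the calls are no independent support for it. The log2 differences by limma were -4.28 for Pdgfra 1421917_at (adjusted p = 1.66e-10), -2.80 for Pdgfrb 1417148_at (5.85e-09) and -4.39 for Pdgfrb 1436970_a_at (1.45e-08). With neither Pdgfa probe-set called, 3 of 5 were called, and 60.8% of all tested probe-sets were called in this comparison. Epithelial marker signals in DP were 434.4 to 503 in sum and those in DF were larger, as given above.

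All 3 receptor probe-sets were called in each of the 6 pairs of a mesenchymal with a non-mesenchymal population, again the direction that the bound favoured. Their log2 differences ran from -4.91 (Pdgfra) to -2.31 (Pdgfrb 1417148_at) for ORS minus DP, from -4.67 to -3.24 for ORS minus DF, and from 2.32 to 4.80 for DP minus Mc. The counts of PDGF probe-sets called were 5 of 5 for Mx against DF (52.2% of all probe-sets called), 3 for Mx against DP (58.1%), 3 for ORS against DF (34.9%) and 4 for ORS against DP (40.1%). They were 5 for DF against Mc (36.3%) and 5 for DP against Mc (30.5%). In the pairs without mesenchyme, only Pdgfa was called, in 2 of 5 for Mx against Mc (50%) and 2 for ORS against Mc (41.0%). Receptor signals on the Mc arrays were 0.8 to 26.4, beside the melanocyte marker sums of 29508.3 and 31289 there.

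The probe-sets most like the tested members over the 10 arrays were ranked by Pearson's r, which mostly reflects the 5 population means. For Pdgfra they were Emilin1 (0.999), Zbtb20 (0.996) and Rpl39l (0.995). For Pdgfrb 1436970_a_at they were C1s1 (0.994), Serping1 (0.991) and Fxyd1 (0.991), and for Pdgfa 1418711_at Col18a1 (0.962), Fam107b (0.957) and Pdlim7 (0.952). Col18a1 had mean signals of 1444.05 in ORS and 2134.1 in DF against 69.4 in Mc. Pdgfa was likewise high in ORS and DF and lowest in Mc, but its ORS and DF signals overlapped.

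Pdgfra lies beside Kit and Kdr in the mouse genome, and Pdgfrb beside Csf1r, all encoding related receptor kinases, by the order of genes in the GRCm38.p6 annotation. The neighbours had patterns of their own. Kit, the stem cell factor receptor used for the sort, was at 2989.1 and 2650.9 in Mc, 621.5 and 376 in DP, and 346.7 and 152 in DF. Kdr, the main endothelial VEGF receptor, was at 1007.1 and 658.4 in DF and at 114.8 or less elsewhere, and Csf1r, the macrophage receptor, was at 55 to 149.7 throughout.

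**Figure D4:**
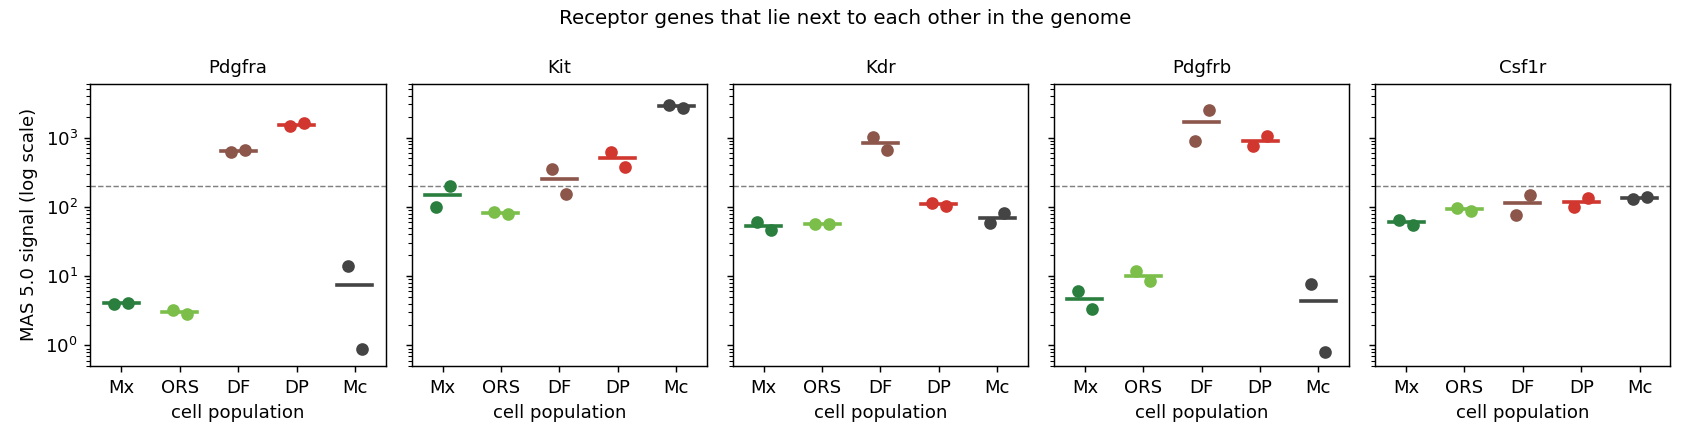
MAS 5.0 signal (log axis) in the 5 populations of Pdgfra with its genomic neighbours Kit and Kdr, and of Pdgfrb with its neighbour Csf1r, at the brightest probe-set of each gene; points are arrays, short lines means, and the dashed line is at 200. Pdgfra is highest in DP, Kit in Mc and Kdr in DF.

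Other genes of the pathway were counted in 5 lists of relatives, cofactors, effectors, inhibitors and responses, with 1 probe-set a gene. Of 52 tested, 7 were higher in DP and 11 higher in DF, against 7.77% and 11.7% of all 5253 genes tested. Between epithelium and mesenchyme, 8 were higher in epithelium and 30 in mesenchyme, against 26.3% and 34.4% of genes.

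Among 4 relatives tested, DF exceeded DP for Flt4, the lymphatic VEGF receptor (930 ± 212 against 72.4 ± 9.9, SD, n = 2), and for Kdr. Flt4 and Kdr had passed the bound through DF alone, as had Pcsk6 among the cofactors below, so the bound favoured DF for them. Among 11 cofactors that process or bind PDGFs, 5 were higher in DF. They included Thbs1, thrombospondin (log2 difference -2.47, DP minus DF), the protease gene Pcsk6 (-1.35) and Sparc, which binds B chains (-1.30), all called by limma. Plat, which activates the C chain, was the 1 cofactor higher in DP. Of 18 adaptors and effectors, 3 were higher in DP and none in DF. They were Stat5a (1.64), Stat5b (1.13) and Pik3r1 (1.05), a regulatory subunit of PI3-kinase that docks on PDGF receptors. These 3 had passed the bound through DP alone, so the bound favoured DP for them.

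Of 9 inhibitors tested, Socs3 (0.86) and the phosphatase gene Ptprj (0.84) were higher in DP, and Dusp6 (-0.76) and Lrig1 (-1.35) were higher in DF. Of 10 genes that PDGF induces in cultured fibroblasts, Ccn1 was higher in DP (1.62, 6258.2 and 5096.1 against 1894.6 and 1724.2 in DF). Ccn2 (-1.74) and Myc (-1.61) were higher in DF. The median DP minus DF over each list ran from -0.93 for relatives to 0.10 for effectors, beside -0.03 for all genes. The relatives were 4 genes, of which Flt4 and Kdr had passed the bound through DF alone. Among the effectors, Stat5a, Stat5b and Pik3r1 had passed it through DP alone.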

How the data were processed

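The labels place the 10 arrays in 5 populations of 2, and the methods describe 2 entirely independent datasets. The deposited values are intensities on a linear scale: the authors computed a MAS 5.0 signal for each probe-set from the scanned arrays and scaled each array. The methods name one common target, but the 2% trimmed means of the deposited signals were 163 to 197, so the scaling was tried otherwise as well. RNA had been amplified in 1 round before labelling. Present calls and Robust Multi-Chip values were not used here. No array column was left unmapped (0 columns). The array files gave chip lots and fluidics stations. Chip lot followed the replicate number in every population except Mx, whose arrays were both of lot 1. The lot term and the replicate block are therefore nearly the same alternative.

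Control probe-sets (64) were dropped. Of 22626 others, 20380 had 1 gene, 691 several and 1555 none in the platform annotation. Signals at or above 200 on both arrays of at least 1 population were required (8054 probe-sets), and log2(signal + 50) was fitted with limma 3.58.1 in R 4.3.3, with a mean for each population over all 10 arrays, 5 residual and 7.46 prior degrees of freedom. A call is an adjusted p under 0.05 (Benjamini-Hochberg, within each comparison). These p-values rest on a spread pooled over populations and probe-sets, since a permutation test of 2 against 2 arrays cannot go below 0.3333. The number of arrays limits the precision of every value.

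No pairing by replicate number was assumed, since the labels name no shared preparation. Deviations of same-numbered arrays correlated at -0.0456 to 0.34, above 0.1 in 5 of 10 pairs. The methods sort DP and DF from the same depleted cells, and Mx and ORS by their level of green. These pairs had the highest correlations, 0.275 for DF with DP and 0.34 for Mx with ORS. Whether same-numbered arrays shared a preparation is not known, so the replicate block was fitted as an alternative. Alternatives were other pseudocounts, bounds, scalings, blocks, arrays and priors. A gene was represented in lists by its brightest probe-set. All PDGF probe-sets are named, with the 3 genes most like each tested gene, at most 4 called genes of each pathway list and the markers that move with a result; Plat, Pdgfd and Csf1r were named outside that rule, after their values were seen. The genes, the 5 pathway and 12 marker lists and the tests were chosen with earlier results of these data known. The fitting was tested on simulated data.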

Additional observations from a re-analysis of the deposited data

How the results depend on the processing

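With 2 arrays a population, single arrays carry much of the weight. Of 966 comparisons of a PDGF result with an alternative, 920 kept their direction and side of the threshold, 19 lost a call, 15 gained one and 12 changed sign, none of the last called in the reported fit. With a bound of 100, 8 PDGF probe-sets were tested in place of 5, and with none all 10. Between DP and DF, 2 of 5 PDGF probe-sets were called. The count was 1 with a pseudocount of 1, 4 with a signal bound of 100, 4 with the replicate number as a block, and 1 (without DF replicate 2) to 5 (without DF replicate 1) when single arrays were left out. The block added Pdgfa 1418711_at and 1449187_at between DP and DF (limma, adjusted p = 0.0474 and 0.0115) and 1418711_at between ORS and DP (0.0234). Replicate differences of DF and DP, which the methods sort from the same depleted cells, correlated at 0.275. The labels do not say whether same-numbered arrays shared a preparation, so the block was kept as an alternative. Over all probe-sets the DP against DF count of 1532 ran from 881 (without DP replicate 1) to 1847 when single arrays were left out, with 1017 without DF replicate 2, and was 2007 with a bound of 100 and 2161 with none. Between epithelium and mesenchyme, 3 PDGF probe-sets became 5 with a bound of 100 or with none, which tests more probe-sets, and the 4899 calls over all probe-sets became 9222 with none. The 33 calls in 50 tests over the 10 pairs became 50 calls with either, again with more probe-sets tested.

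Without single arrays, Pdgfa 1418711_at ran from -0.368 to 0.405 for ORS minus DF and from -0.354 to 0.032 for epithelium minus mesenchyme, and 1449187_at from -0.0193 to 0.62 and from -0.0727 to 0.247. Its Mx minus DP ran from -0.373 to 0.121, and was 0.202 after quantile normalization and 0.0646 with chip lot as a term. Pdgfrb 1436970_a_at ran from -1.42 to 0.0167 for DP minus DF. The causes were not tested. A fit with scan day could not be run, since all arrays shared 1 day. Fluidics station as a term was added after seeing the data and changed 1 call.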
